A study of Mus musculus with 19 samples.

Results

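The cytosolic ribosomal protein genes were taken as every protein-coding mouse gene whose symbol in the GENCODE M21 annotation of GRCm38 is Rps or Rpl followed by a number (with an a, x, y or l suffix where there is one), together with Rplp0, Rplp1, Rplp2 and Rpsa, leaving out pseudogenes and the Rps6k kinases. The rule used names and no measured value, and it found 84 of the 55487 genes in the files. Of these, 32 encode proteins of the small (40S) ribosomal subunit and 52 proteins of the large (60S) subunit. A set of 7 (Rps27l, Rpl3l, Rpl7l1, Rpl10l, Rpl22l1, Rpl36al and Rpl39l) are paralogs, copies of a core gene that carry an l in their symbol; the other 77 are called core genes here. The rule does not reach Fau, which encodes a ribosomal protein fused to a ubiquitin-like protein and is given with other genes of translation.

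RNA was sequenced from small-intestinal crypts, the epithelial pits that hold stem and progenitor cells, of 19 C57BL/6 mice, with 1 library per mouse. By the study's methods, crypts were isolated from the proximal part of the small intestine, without its distal end. The ad libitum–fed groups held 5 wild-type (Nt+/+) and 4 NT knockout (Nt-/-) mice. The groups fasted for 48 h, with water only, held 5 mice of each genotype. Knockout mice lack neurotensin (NT), a gut peptide hormone that enteroendocrine cells release after a meal, in every tissue from the germline on. Fed mice of either genotype had standard chow, both sexes were used, and by the study's methods the mice were adult littermates matched for age and sex. The study also kept both genotypes with an Lgr5-EGFP reporter of intestinal stem cells; the labels give the strain as C57BL/6 and do not say whether these mice carried it. The labels of fasted Nt+/+ replicate 5 disagree (the title gives NT+/+, the genotype field NT-/-), and it was grouped by its title. Nts, which encodes NT, stood at 4.98 to 8.59 CPM (counts scaled to a common library size) in the 10 mice titled Nt+/+, this mouse (5.43 CPM) included, and at 0.144 to 0.793 CPM in the 9 Nt-/- mice.

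Each ribosome contains a single copy of most of these proteins, and cells make them in nearly equal amounts. Their messenger RNAs begin with a run of pyrimidines, the 5′ terminal oligopyrimidine (5′TOP) tract, which starts with a C at the first transcribed base. Through this tract the kinase complex mTORC1, which is active when nutrients are plentiful, controls how heavily these messages are translated, and the protein LARP1 binds and stabilises them when mTORC1 is low. RNA-seq counts messages and not their translation.

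The tract can be seen in the first bases of some of these genes. RefSeq starts on GRCm38.p6 were matched for 64 of the 84 genes, at 76 start sites. Each line below has the 30 bases around a start, 15 on each side, on the transcribed strand; capitals mark the pyrimidine run that opens at the first transcribed base. The first 6 genes have such a run, and the last 4 are the tested l-suffix paralogs, which have none at these starts.
Rps27 (chr3:90213634-90213663, minus strand): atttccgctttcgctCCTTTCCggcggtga
Rps6 (chr4:86857353-86857382, minus strand): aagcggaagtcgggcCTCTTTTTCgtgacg
Rps18 (chr17:33955651-33955680, minus strand): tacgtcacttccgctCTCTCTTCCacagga
Rpl38 (chr11:114668565-114668594, plus strand): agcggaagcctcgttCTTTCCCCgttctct
Rplp2 (chr7:141447636-141447665, plus strand): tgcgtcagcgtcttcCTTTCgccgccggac
Rpl28 (chr7:4792950-4792979, plus strand): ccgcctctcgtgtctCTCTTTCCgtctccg
Rps27l (chr9:66946071-66946100, plus strand): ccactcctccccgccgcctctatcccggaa
Rpl22l1 (chr3:28805493-28805522, plus strand): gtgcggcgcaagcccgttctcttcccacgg
Rpl7l1 (chr17:46782642-46782671, minus strand): gtgaggctgcgcaagcgcagtagctgaagc
Rpl36al (chr12:69184053-69184082, minus strand): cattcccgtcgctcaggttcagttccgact

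A C followed by at least 4 bases that are each C or T stood exactly at the start in 13 of the 76 ribosomal protein starts (17.1%) and in 823 of 32851 starts of all genes in the table (2.51%). Within 10 bases of the start on either side, where the annotated base can be off, the same run was found in 41 of the 76 (53.9%) and in 30.7% of all starts. All 13 exact matches were at core genes, with 0 of the 9 starts of the paralogs. Within 10 bases the run was found at 36 of 67 core starts (53.7%) and at 5 of 9 paralog starts (55.6%), among them the starts of Rps27l and Rpl22l1 printed above. The run was searched on the transcribed strand only, and no match says only that these letters are not at the annotated base. A further start of Rps27l, inside the gene, has no run within 10 bases.

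Fed crypts held these messages at high but unequal levels. On the deposited TPM scale, which corrects for length, the 77 core genes ranged from 60.3 to 1305 TPM in ad libitum–fed Nt+/+ mice, with a median of 576 TPM, and 63 of them lay between 200 and 800 TPM. The highest was Rpl41, which encodes a very short basic peptide, at 1305 ± 108 TPM (mean ± SD, n = 5), followed by Rpl13a at 1125 ± 48.9 TPM and Rps2 at 1066 ± 38.0 TPM. From Rpl13a down through Rps2, Rpl23a (1021 ± 38.2 TPM) and Rps24 (1005 ± 67.2 TPM), neighbours differed by less than 2 SDs of either gene. The lowest core gene was Rpl5, at 60.3 ± 8.28 TPM, although its protein binds 5S rRNA in every ribosome. Rpl27 stood at 105 ± 2.39 TPM.

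Some of the reads of these genes are counted on pseudogenes. The mouse genome has many processed copies of ribosomal protein genes, and 1733 annotated pseudogenes matched a gene of the family over at least 50% of their length at 80% identity or more. RSEM, the program that made the counts, divides reads that match several genes by a model. Over all mice, 90.9% of the counts on Rpl5 and its 16 copies lay on the copies, as did 77.7% for Rpl27, 61.6% for Rpl28 and 60.9% for Rps23. The median over the 81 tested genes was 1.85%, and 12 genes were above 20%, so the level of those 12 is uncertain. They are not all low, and Rpl28 stood at 682 ± 17.0 TPM in ad libitum–fed Nt+/+ mice, above the median of the core genes.

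Of the paralogs, Rpl7l1, a nucleolar relative of Rpl7, stood at 40.9 TPM in ad libitum–fed Nt+/+ mice, Rpl22l1 at 133 TPM and Rps27l at 152 TPM. Rpl36al stood at 257 ± 18.4 TPM, above its parent Rpl36a at 180 ± 15.1 TPM. Of the counts on Rpl36a and its copies, 52.6% lay on the copies, against 0.043% for Rpl36al, so this order is uncertain. Rpl10l and Rpl39l, known from testis, and Rpl3l, known from heart and skeletal muscle, were at or near 0. Rpl10l had 0 counts in every mouse. These 3 did not pass the filter on low counts, which leaves 81 genes tested: the 77 core genes and 4 paralogs.

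The share of the library that falls on the family was higher in most fasted mice. In ad libitum–fed Nt+/+ mice, 2.35%, 2.33%, 2.75%, 2.39% and 2.44% of all counts fell on the 84 genes (replicates 1 to 5). In fasted Nt+/+ mice the shares were 3.36%, 2.70%, 3.01%, 2.76% and 3.25%. All but 1 of the fed mice lay below all fasted mice, and fed replicate 3 lay between fasted replicates 2 and 4. In fed replicate 1, 11.5% of all counts fell on the gene CT010467.1, against 0.233% to 2.94% in the other mice. Those counts lower its share. As shares of protein-coding counts, the fed mice had 3.02%, 2.61%, 3.11%, 2.72% and 2.72%. The fasted mice had 3.75%, 3.05%, 3.37%, 3.10% and 3.62%, so fed replicate 3 lay above fasted replicates 2 and 4. In ad libitum–fed Nt-/- mice the shares were 2.39%, 2.35%, 2.65% and 2.56%, and in fasted Nt-/- mice 3.38%, 2.43%, 2.96%, 3.03% and 3.20%. There, fasted replicate 2 (2.43%) lay among the fed mice and the other 4 above them. The group means were 2.45% ± 0.171 and 3.01% ± 0.290 in Nt+/+ mice and 2.48% ± 0.141 and 3.00% ± 0.358 in Nt-/- mice (SD). These are shares of each library, so they say nothing of RNA per cell; in bulk samples, fewer cells of a type and less RNA per cell cannot be told apart.

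**Figure D1:**
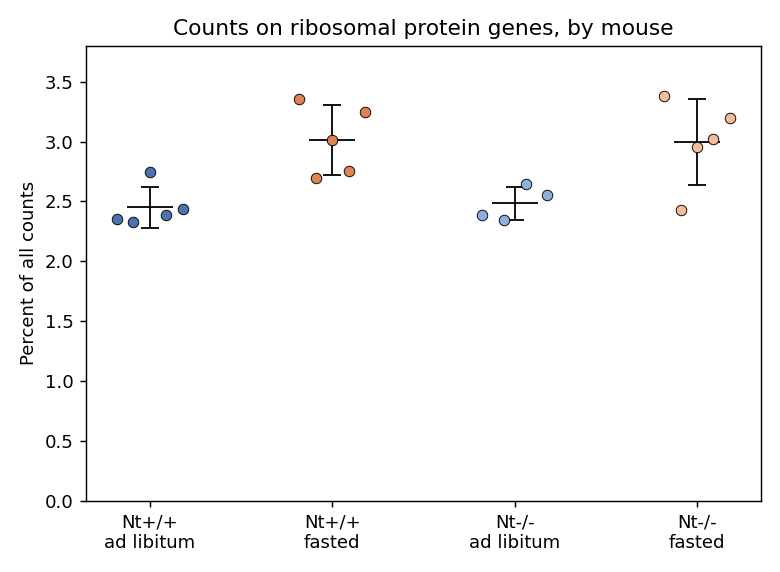
Percent of all counts on the 84 ribosomal protein genes (y axis, from 0) in each mouse, by genotype and diet; points are mice, the wide tick is the group mean and the error bars are 1 SD. Fed mice lie between 2.33% and 2.75%, and fasted mice between 2.43% and 3.38%.

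Gene by gene, fasting in Nt+/+ mice raised 35 of the 81 tested genes (43.2%), against 11.2% of all 17875 genes tested (edgeR's quasi-likelihood test, Benjamini-Hochberg adjusted p under 0.05). It lowered 2 (2.47%), against 10.4% of all genes. The log2 fold change was above 0 in 76 of the 81 (49.1% of all genes) and had a median of 0.29, against −0.01 over all genes, and 68 of the 81 had an unadjusted p under 0.05, as did 34.1% of all genes. For the core genes alone the median was a 1.22-fold higher level in fasted mice. The medians of the 2 subunits were close, with a median log2 fold change of 0.29 and 15 of 31 raised for core 40S genes, and a median of 0.28 and 20 of 46 raised for core 60S genes. Mice of the compared groups with the same number in their file names deviated together, though neither source says what the number stands for. With that number as a replicate block, 66 of the 81 were raised, against 15% of all genes. DESeq2 raised 51, against 12.3% of all genes.

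The count is set by where single genes fall against the threshold. It fell to 15 without ad libitum–fed Nt+/+ replicate 2 or fasted Nt+/+ replicate 1, to 18 without ad libitum–fed replicate 4 or 5, to 19 without fasted replicate 5 and to 22 without fasted replicate 3, and it was 20 when the mouse with conflicting labels was moved to the fasted Nt-/- group, while the median log2 fold change stayed between 0.24 and 0.34 over all alternatives. Over all genes, 1732 and 2028 were raised in the fits with 15, and 1746 and 1717 in those with 18. The fit with 19 raised 2033, that with 22 raised 1736 and that with 20 raised 1960, against 2010 in the main fit. The genes of the family do not move independently. Deviations of the core genes from their group means had a median pairwise correlation of 0.875 over the 19 mice, so 35 raised genes are not 35 separate observations.

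In Nt-/- mice, fasting raised 55 of the 81 genes (67.9%), against 12.5% of all genes, and lowered 2, against 12.6%. The log2 fold change was above 0 in 77 (47.6% of all genes), with a median of 0.34 (−0.02 over all genes), and 70 had an unadjusted p under 0.05, as did 36.5% of all genes. Core 40S genes had a median of 0.36 (24 of 31 raised) and core 60S genes 0.33 (31 of 46 raised). Of the 35 genes raised in Nt+/+ mice, 32 were also raised in Nt-/- mice (91.4% of the former and 58.2% of the latter), and 19 core genes were raised in neither. The same overlap was not counted over all genes, so these percentages do not set the family apart. The count fell to 23 without ad libitum–fed Nt-/- replicate 2, to 34 without fasted replicate 1, to 35 without fasted replicate 5 and to 36 without ad libitum–fed replicate 1. Over all genes, these fits raised 1704, 2162, 1990 and 1963, in that order, against 2242 in the main fit. DESeq2 raised 64 (14.3% of all genes), and edgeR with the replicate block 67 (14.7% of all genes). With sex as a covariate, which drops fasted Nt-/- replicate 5 because its sex is not labelled, edgeR raised 35. That fit raised 2004 of all 17743 genes it tested.

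**Figure D2:**
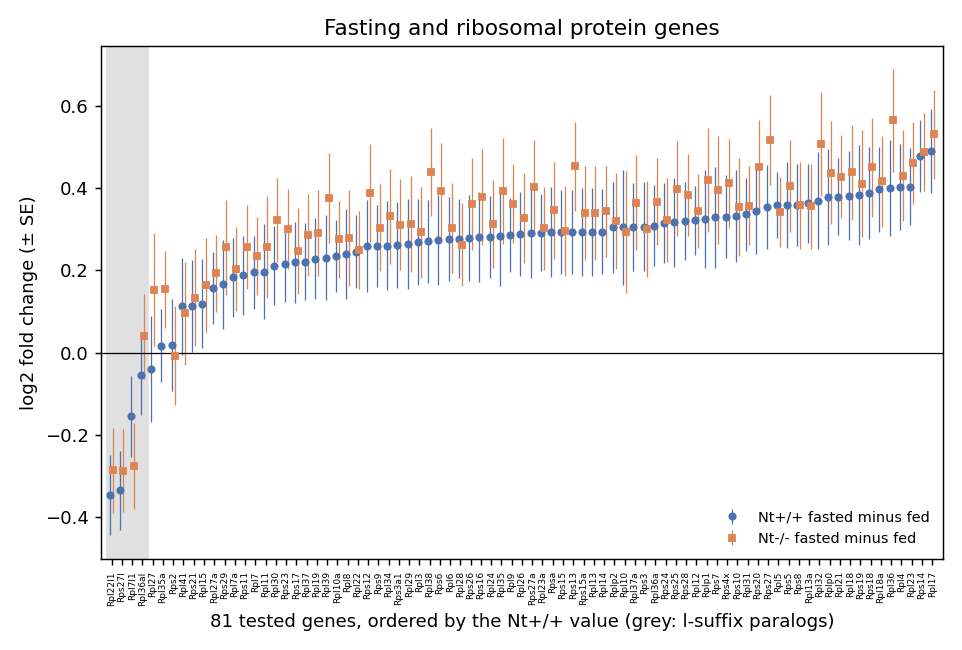
Log2 fold change, fasted minus ad libitum–fed (y axis), of the 81 tested genes (x axis, ordered by the Nt+/+ value) in Nt+/+ mice (circles) and Nt-/- mice (squares); error bars are 1 SE and grey marks the 4 paralogs. Core genes lie between −0.04 and 0.56 and the paralogs between −0.35 and 0.04.

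Markers of some cell types also moved with fasting. Of all genes, 11.2% were raised and 10.4% lowered in Nt+/+ mice, and 12.5% and 12.6% in Nt-/- mice. The summed level of 9 enterocyte markers was 4808 to 9263 CPM in ad libitum–fed Nt+/+ mice and 8928 to 18240 CPM in fasted ones, and 6935 to 10060 CPM against 16210 to 21590 CPM in Nt-/- mice; 6 and 8 of the 9 were raised. The sum of 9 stem and progenitor markers was 3121 to 4147 CPM in fed and 1772 to 3070 CPM in fasted Nt+/+ mice (5 of 9 lowered), and 2861 to 3711 CPM in fed and 1690 to 2252 CPM in fasted Nt-/- mice (7 of 9 lowered). The lowered genes were Olfm4 and the cell-cycle genes Mki67, Top2a, Mcm5 and Pcna, with Smoc2 and Ccnb1 in Nt-/- mice as well. The stem cell receptor Lgr5 had log2 changes of 0.29 and −0.02 (edgeR adjusted p = 0.287 and 0.955), and the stem cell factor Ascl2 of 0.63 and 0.12 (edgeR adjusted p = 0.114 and 0.823). Of 6 goblet markers 2 and 3 were lowered, of 6 Paneth markers 0 and 1, and of 11 immune markers 1 and 1. Of 6 enteroendocrine markers 1 was raised in each genotype and 1 was lowered in Nt-/- mice. Of 5 tuft markers 0 were called in either genotype. The sum of 8 stromal markers was 7.6 to 14.8 CPM in every group, and that of 5 pancreas markers 1.78 to 4.28 CPM, with 2 to 4 of the 5 at 0. The part of these shifts in the ribosomal protein result was not tested.

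The largest rises in Nt+/+ mice were in Rpl17 and Rps14. Rpl17, a protein near the exit of the peptide tunnel, was measured at 433, 356, 452, 392 and 406 CPM in the ad libitum–fed mice and at 616, 515, 562, 533 and 637 CPM in the fasted mice. Every fasted mouse was above every fed mouse, and the log2 fold change was 0.49 (SE 0.10, edgeR adjusted p = 0.00193). Nt-/- mice had 401, 374, 454 and 466 CPM fed and 695, 474, 622, 607 and 663 CPM fasted, again without overlap and with a log2 fold change of 0.53 (SE 0.11, edgeR adjusted p = 0.00143).

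Rps14, a protein of the 40S platform whose loss underlies the anemia of the human 5q− syndrome, stood at 301, 249, 297, 273 and 269 CPM in fed Nt+/+ mice and at 414, 342, 415, 372 and 393 CPM in fasted ones. The groups did not overlap, and the log2 fold change was 0.48 (SE 0.09, edgeR adjusted p = 0.000683). Fed values in Nt-/- mice of 298, 258, 298 and 297 CPM lay below fasted values of 465, 329, 406, 392 and 426 CPM (log2 fold change 0.49, edgeR adjusted p = 0.000817).

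Rpl36, another 60S protein, had the largest rise in Nt-/- mice. It stood at 127, 114, 125 and 123 CPM fed and at 214, 135, 181, 173 and 201 CPM fasted, with no overlap and a log2 fold change of 0.56 (SE 0.12, edgeR adjusted p = 0.00241). In Nt+/+ mice the change was 0.40 (edgeR adjusted p = 0.0180), with fed replicate 3 (151 CPM) above fasted replicates 2 and 4 (both 142 CPM). Rpl23, at the face where the subunits meet, rose by 0.40 and 0.46 on the log2 scale in Nt+/+ and Nt-/- mice, and Rpl4, which lines the peptide tunnel, by 0.40 and 0.43; in both genes every fasted mouse was above every fed mouse of its genotype. Rpl32 rose by 0.37 and 0.51.

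Complete separation of the groups was less frequent than the test's calls. Every fasted mouse lay above every fed mouse for 13 of the 81 genes in Nt+/+ mice (7.63% of all genes) and for 16 in Nt-/- mice (10.5% of all genes). No gene of the family was wholly lower in fasted Nt+/+ mice (6.97% of all genes), and Rps27l alone was in Nt-/- mice (10.8% of all genes).

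The 60S stalk recruits elongation factors to the ribosome and is built of Rplp0, Rplp1 and Rplp2. Rplp0 stood at 964, 755, 941, 738 and 778 CPM in fed Nt+/+ mice and at 1255, 1006, 1145, 938 and 1084 CPM in fasted ones. Fasted replicate 4 lay just below fed replicates 1 and 3, and the log2 fold change was 0.38 (SE 0.12, edgeR adjusted p = 0.0252). The changes of Rplp1 and Rplp2 were 0.33 and 0.30 in Nt+/+ mice (edgeR adjusted p = 0.0566 and 0.0535; 0.00549 and 0.00452 with the replicate block). Rplp0 and Rplp1 rose in Nt-/- mice by 0.44 and 0.42, and Rplp2 had a change of 0.32 (edgeR adjusted p = 0.0508; 0.0119 with the replicate block).

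Rpl5 and Rpl11 form a complex with 5S rRNA and, outside the ribosome, bind the p53 inhibitor Mdm2. Rpl5 stood at 64.5, 53.0, 52.7, 57.4 and 65.1 CPM in fed Nt+/+ mice and at 80.5, 77.5, 70.6, 70.1 and 76.6 CPM in fasted ones. No values overlapped, and the log2 fold change was 0.36 (SE 0.08, edgeR adjusted p = 0.00334), with 0.34 in Nt-/- mice (edgeR adjusted p = 0.00610). After the counts of its 16 pseudogenes were added, the changes were 0.36 and 0.39. Rpl11 had a change of 0.20 in Nt+/+ mice and 0.26 in Nt-/- mice (edgeR adjusted p = 0.246 and 0.138; 0.0399 and 0.0342 with the replicate block).

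Rps6, the ribosomal protein that S6 kinase phosphorylates downstream of mTORC1, stood at 515, 449, 471, 395 and 436 CPM in fed Nt+/+ mice and at 570, 526, 522, 492 and 630 CPM in fasted ones. Fasted replicate 4 was below fed replicate 1, and the log2 fold change was 0.27 (SE 0.11, edgeR adjusted p = 0.0793; 0.0326 with the replicate block). It rose in Nt-/- mice by 0.39 (edgeR adjusted p = 0.0171), from 438, 414, 487 and 500 CPM to 760, 492, 536, 583 and 649 CPM, with fasted replicate 2 below fed replicate 4. The range of fasted Nt-/- mice was the widest of the 4 groups.

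Other genes known for a role of their own fell in the same range. Rps19, the gene most often mutated in Diamond-Blackfan anemia, rose by 0.38 and 0.41 on the log2 scale in Nt+/+ and Nt-/- mice (edgeR adjusted p = 0.0287 and 0.0253). Rpl13a, which can also silence inflammatory messages, rose by 0.36 in both. Rpsa, known too as the laminin receptor, had a change of 0.29 in Nt+/+ mice (edgeR adjusted p = 0.0637; 0.00693 with the replicate block) and rose by 0.35 in Nt-/- mice. Rps3, which lies at the entry of the mRNA channel, was raised in Nt+/+ mice (0.31, edgeR adjusted p = 0.0499) and had a change of 0.30 in Nt-/- mice (edgeR adjusted p = 0.0632; 0.00820 with the replicate block). Its call in Nt+/+ mice was lost in 17 of the 32 alternatives run (adjusted p up to 0.123). Rps27a, whose product is fused to ubiquitin, had changes of 0.29 and 0.40 (edgeR adjusted p = 0.0613 and 0.0145). Rpl38, needed for normal patterning of the skeleton in mice, had changes of 0.27 and 0.44 (edgeR adjusted p = 0.0616 and 0.00538). With the replicate block, Rps27a and Rpl38 passed in Nt+/+ mice too (edgeR adjusted p = 0.0175 and 0.00947). They gained a call there in 9 and 8 of the 32 alternatives. Calls were also lost in Nt+/+ mice, for Rpl32, Rpl36a, Rplp0 and Rps19 in 8, 7, 6 and 5 of the 32. In Nt-/- mice those of Rpsa and Rps19 were lost in 8 and 4.

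A few core genes moved little. Rps2 was among the 3 most abundant of the family in fed mice and stood at 982, 787, 953, 757 and 792 CPM in fed and 1009, 782, 879, 749 and 907 CPM in fasted Nt+/+ mice. The 2 ranges lie over each other, with a log2 fold change of 0.02 (SE 0.11, edgeR adjusted p = 0.927) and −0.01 (SE 0.12, edgeR adjusted p = 0.976) in Nt-/- mice. By TPM, Rps2 had rank 3 of the family in fed and rank 9 in fasted Nt+/+ mice. Rpl27 had changes of −0.04 and 0.15 (edgeR adjusted p = 0.863 and 0.460), and with its pseudogene copies added 0.10 and 0.16. Rpl41, the most abundant, had changes of 0.11 and 0.10 (SE 0.12 and 0.13).

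**Figure D3:**
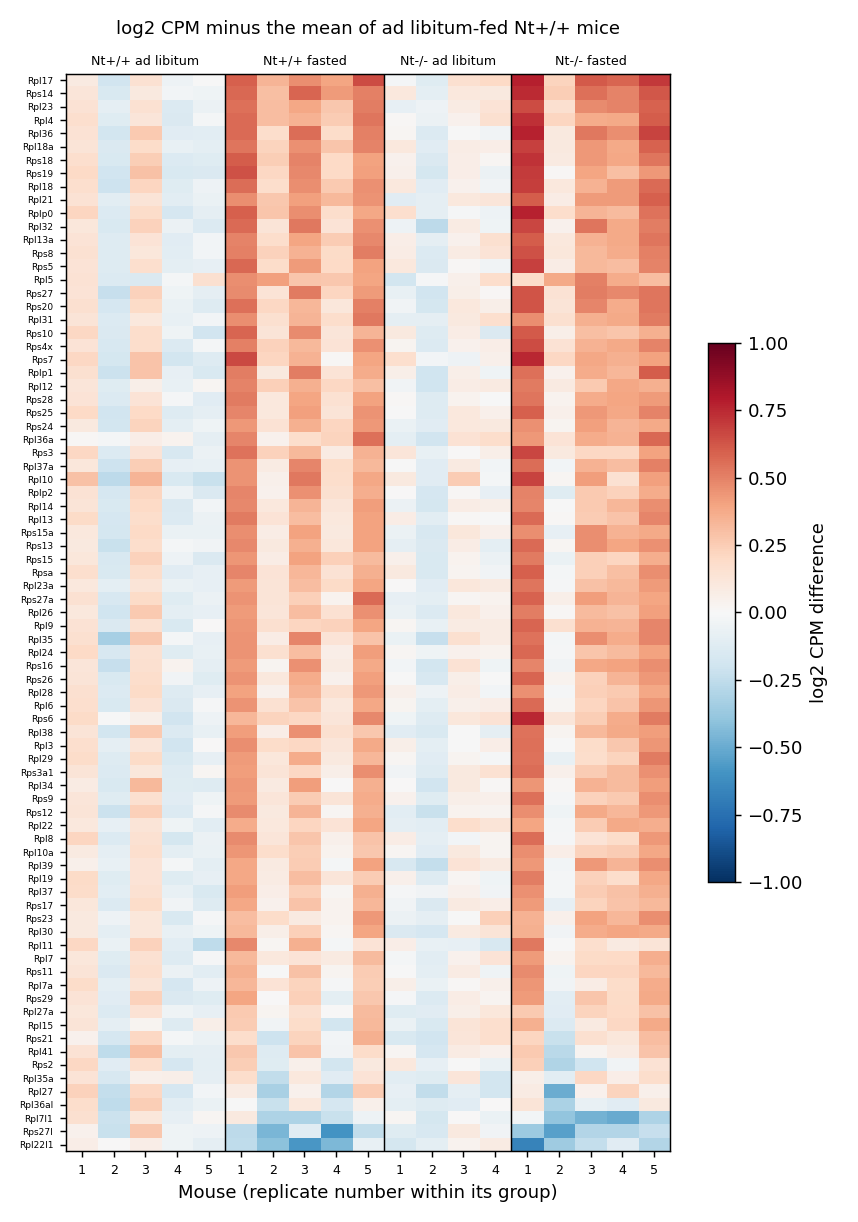
Log2 CPM of each tested gene in each mouse minus that gene's mean in ad libitum–fed Nt+/+ mice (colour, from −1 to 1); rows are the 81 genes ordered by the Nt+/+ fasting change, columns are mice by group and replicate number. Fasted columns are red for most core genes, palest in replicate 2 of the fasted Nt-/- mice. In the paralog rows at the bottom, fasted columns are blue for Rps27l and Rpl22l1, mostly blue for Rpl7l1 and mixed for Rpl36al.

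Of the 4 tested paralogs, 2 fell and 0 rose in each genotype, and none of their 4 parents fell. Of all genes, 10.4% fell and 11.2% rose in Nt+/+ mice, and 12.6% and 12.5% in Nt-/- mice. Counts out of 4 genes do not establish a pattern of paralogs. Rps27l encodes a close relative of Rps27 and is known as a target of p53. It stood at 57.0, 47.2, 66.7, 53.6 and 53.2 CPM in fed Nt+/+ mice and at 45.9, 40.1, 50.9, 36.4 and 46.6 CPM in fasted ones. Fasted replicate 3 was above fed replicate 2, and the log2 fold change was −0.33 (SE 0.10, edgeR adjusted p = 0.0168). The Nt-/- mice had 50.7, 49.3, 58.9 and 53.7 CPM fed and 42.8, 37.9, 44.9, 44.9 and 47.0 CPM fasted, without overlap (log2 fold change −0.29, edgeR adjusted p = 0.0445; 0.00395 with the replicate block). Its parent Rps27, a zinc-finger protein of the 40S subunit, rose by 0.35 (edgeR adjusted p = 0.0175) and 0.52 (edgeR adjusted p = 0.00175) on the log2 scale.

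Rpl22l1 stood at 51.6, 49.5, 51.5, 47.8 and 46.4 CPM in fed Nt+/+ mice and at 41.3, 37.0, 32.9, 36.2 and 46.8 CPM in fasted ones. Fasted replicate 5, the mouse with conflicting labels, reached the lowest fed mouse, and the log2 fold change was −0.35 (SE 0.10, edgeR adjusted p = 0.0148). In Nt-/- mice it stood at 43.6, 46.0, 50.5 and 52.3 CPM fed and at 31.0, 38.6, 41.9, 45.7 and 40.2 CPM fasted. The log2 fold change there was −0.29 (edgeR adjusted p = 0.0486; 0.0524 with the replicate block), a call kept in 9 of the 32 alternatives run, while that of Rps27l was kept in 19. The changes of Rpl22, its parent, were 0.25 and 0.25 (edgeR adjusted p = 0.0524 and 0.0576; 0.0214 and 0.0330 with the replicate block).

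Rpl7l1 had changes of −0.16 in Nt+/+ mice (edgeR adjusted p = 0.281) and −0.28 in Nt-/- mice (edgeR adjusted p = 0.0574; 0.00962 with the replicate block). Rpl36al, a relative of Rpl36a, had changes of −0.05 and 0.04 (edgeR adjusted p = 0.739 and 0.825), and Rpl36a rose by 0.31 and 0.37. Pseudogene copies took 1.01% of the counts of Rps27l and its copies, 1.85% for Rpl22l1 and 52.6% for Rpl36a. With its copies added, Rpl36a rose by 0.38 and 0.46.

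The balance within each pair was then computed per mouse as the paralog's percent of the TPM of both genes, a measure chosen after the values of the single genes were seen and free of the library's scaling. The share is built from the same genes and mice as the changes above. It also falls where only the parent rises, as with Rpl36al and Rpl36a below. Its p-values are therefore not separate evidence that a paralog fell. Rps27l made up 14.4% to 15.6% of its pair in fed and 9.28% to 10.6% in fasted Nt+/+ mice, and 14.7% to 15.5% in fed and 8.19% to 10.02% in fasted Nt-/- mice. No fasted mouse reached a fed mouse, and the differences were −5.15 and −5.82 percentage points (exact two-sided permutation test, p = 0.00794 with n = 5 and 5, and p = 0.0159 with n = 4 and 5, the smallest each design allows; both 0.0181 after adjustment over 8 tests). Rpl22l1 fell from 27.7% ± 1.47 to 20.8% ± 2.05 of its pair in Nt+/+ mice and from 27.4% ± 0.738 to 20.4% ± 3.06 in Nt-/- mice (SD), again without overlap and with the same exact p-values. Rpl7l1 fell from 5.28% to 4.39% and from 5.01% to 3.79%, also without overlap.

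Rpl36al made up 58.8% and 52.8% of its pair in fed and fasted Nt+/+ mice, which overlapped (exact permutation p = 0.0318), and 57.1% and 51.4% in Nt-/- mice, which did not (exact permutation p = 0.0159). The Nt+/+ difference no longer passed in 7 of the 12 alternatives run. A paralog and its parent share sequence, and how RSEM divided reads between them was not tested. Of the counts on Rpl36a and its copies, 52.6% lay on the copies, which the share leaves out. The level of the Rpl36al share is therefore uncertain.

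**Figure D4:**
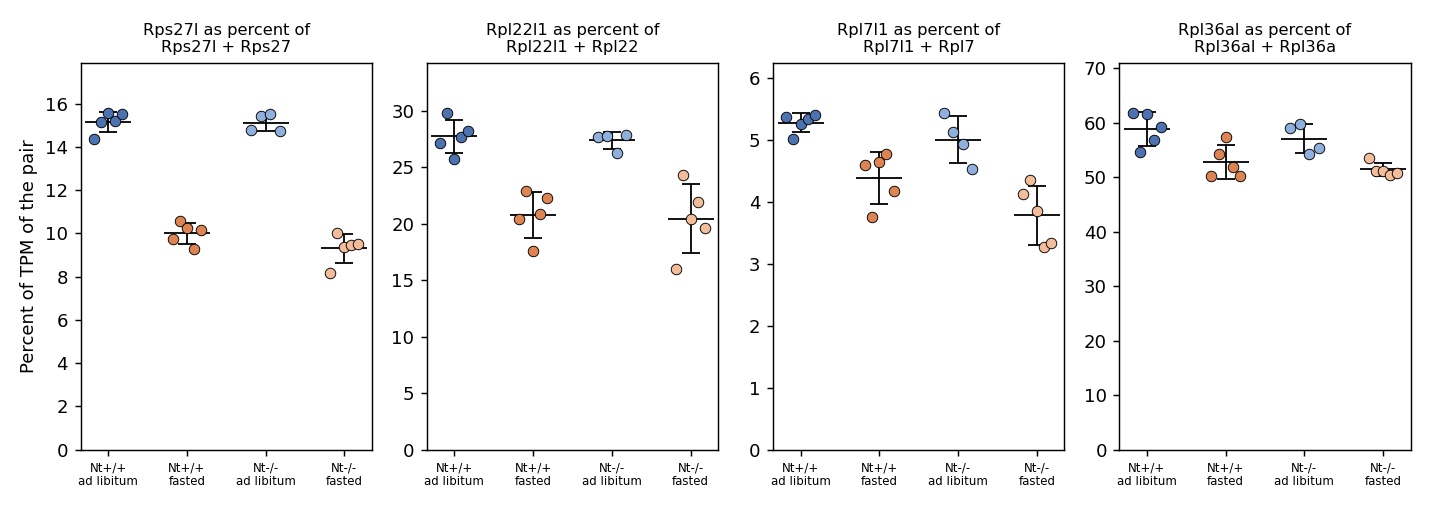
Percent of the TPM of a paralog and its parent that falls on the paralog (y axis, from 0), in each mouse, for Rps27l, Rpl22l1, Rpl7l1 and Rpl36al; points are mice, wide ticks are means and error bars 1 SD. In the first 3 panels every fasted mouse lies below every fed mouse of its genotype.

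No gene of the family was called between the genotypes. In ad libitum–fed mice, 0 of the 81 genes differed between Nt-/- and Nt+/+ mice by edgeR's test (1 gene of all 17875, 0.00559%, was lower in Nt-/- mice), 0 had an unadjusted p under 0.05 (1.67% of all genes did), and DESeq2 called 0 (0.00559% of all genes higher and 0.0112% lower). The log2 differences, Nt-/- minus Nt+/+, ran from −0.16 (Rpl27) to 0.06 (Rpl17), with a median of −0.02 and a median SE of 0.11, and 30 of the 81 were above 0 (49.6% of all genes). In fasted mice the counts were again 0, 0 and 0, where edgeR called 0.00559% of all genes lower, 9.14% had an unadjusted p under 0.05, and DESeq2 called 78 of all genes higher (0.436%) and 20 lower (0.112%). The differences there ran from −0.18 (Rpl7l1) to 0.14 (Rps6), with a median of 0.04, and 70 of the 81 were above 0 (47.3% of all genes). The difference between the fasting changes of the genotypes, tested as an interaction, was called for 0 of the 81 genes (0% of all genes) by edgeR, for 0 by DESeq2 and for 0 at an unadjusted p under 0.05 (2.71% of all genes). Its values ran from −0.12 (Rpl7l1) to 0.19 (Rpl27), with a median of 0.05 and SEs of 0.12 to 0.20, and 72 of the 81 were above 0 (48% of all genes). Because the genes move together across mice, these signs are not separate observations. The higher count of raised genes in Nt-/- mice is therefore not shown to be a difference between the genotypes. Differences larger than these SEs could also go uncalled, as the fasting change of Rpl38 in Nt+/+ mice did (0.27, SE 0.10, edgeR adjusted p = 0.0616).

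Other genes with a known or likely 5′TOP tract, mostly elongation and initiation factors, moved in part with the ribosomal proteins. Of 19, 9 rose and 1 fell in Nt+/+ mice (11.2% and 10.4% of all genes), and 10 rose and 2 fell in Nt-/- mice (12.5% and 12.6% of all genes), with medians of 0.17 and 0.28 on the log2 scale. Fau, which encodes the ribosomal protein eS30, rose by 0.51 and 0.54 (edgeR adjusted p = 0.000365 and 0.000342), and Eef2, the elongation factor that moves the ribosome along the message, by 0.50 and 0.57. Hnrnpa1, a splicing factor, fell by 0.34 and 0.30, and Eef1d fell by 0.26 in Nt-/- mice.

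Ribosomal proteins of the mitochondrion, which serve a separate ribosome, fell more often than they rose. Of 78 tested, 24 fell and 1 rose in Nt+/+ mice (10.4% and 11.2% of all genes). In Nt-/- mice 28 fell and 0 rose (12.6% and 12.5% of all genes). There, 43 had an unadjusted edgeR p under 0.05 in either direction (36.5% of all genes). The medians were −0.19 and −0.22. The lowest values in Nt+/+ mice were those of Mrps22 and Mrpl34, which fell by 0.54 and 0.53 on the log2 scale. The lowest in Nt-/- mice were those of Mrpl38 and Mrpl47, which fell by 0.64 and 0.60. Mrpl23 rose by 0.68 in Nt+/+ mice (edgeR adjusted p = 0.0316).

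The machinery that makes and assembles ribosomes was described in the same way. Of 43 tested genes of rRNA synthesis and processing, 1 rose and 1 fell in Nt+/+ mice, beside 11.2% and 10.4% of all genes. In Nt-/- mice 2 rose and 5 fell, beside 12.5% and 12.6% of all genes, with medians of −0.02 and −0.13. Sbds, which helps release the last assembly factor from the 60S subunit, rose by 0.23 and 0.36, and Taf1d, a subunit of the RNA polymerase I initiation factor, fell by 0.56 and 0.65. Myc, which drives ribosome production, had changes of 0.90 and 0.46 (SE 0.33 and 0.35, edgeR adjusted p = 0.0539 and 0.363). Of 7 chaperones that carry single ribosomal proteins, 0 were called in either genotype (edgeR; 0 and 1 at an unadjusted p under 0.05).

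Among 8 genes of the mTORC1 pathway that acts on the 5′TOP tract, 2 rose in Nt+/+ mice (11.2% of all genes did) and 1 in Nt-/- mice (12.5%), and 0 fell. Eif4ebp3, whose product blocks the cap-binding factor eIF4E, rose by 1.28 (SE 0.23, edgeR adjusted p = 0.000599) and 1.74 (SE 0.25, edgeR adjusted p = 5.99e-05) on the log2 scale. Eif4ebp1 rose by 0.64 in Nt+/+ mice and had a change of 0.42 in Nt-/- mice (edgeR adjusted p = 0.0708). Larp1 had changes of −0.06 and −0.10. Within the family, the 13 tested genes with a pyrimidine run exactly at an annotated start had medians of 0.28 and 0.34, while the medians of the 48 others that could be matched to a start were 0.28 and 0.33.

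**Figure D5:**
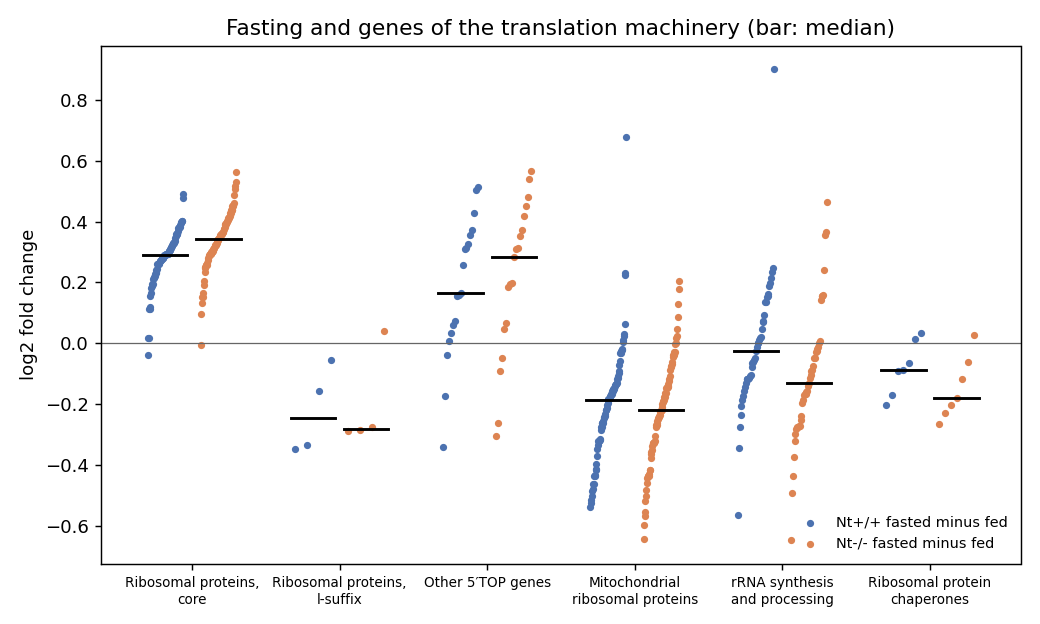
Log2 fold change, fasted minus ad libitum–fed (y axis), of single genes in 6 lists (x axis) in Nt+/+ and Nt-/- mice; points are genes and bars are medians. The medians of core ribosomal proteins are 0.29 and 0.34, and those of mitochondrial ribosomal proteins −0.19 and −0.22.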

How the data were processed

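The authors removed rRNA before library preparation, cleaned the single-end reads with Trimmomatic 0.39 and assigned them with RSEM to GRCm38 transcripts; the RSEM version is not given in the sources used here. They deposited expected counts, which are estimated counts and not normalized, and TPM, and effective lengths (another unit), per gene and mouse. The deposited FPKM column was not used. Expected counts were rounded. Totals ran from 9059418 to 35068669 counts per mouse. In ad libitum–fed Nt+/+ replicate 1, 11.5% of counts fell on CT010467.1 (0.233% to 2.94% elsewhere).

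Of 55487 genes, 55141 matched the GENCODE M21 annotation. The 17875 genes that passed filterByExpr were fitted with edgeR 4.0.16 (R 4.3.3; TMM, 1 coefficient per group, 15 residual degrees of freedom) and its quasi-likelihood test, with Benjamini-Hochberg adjustment over all of them. CPM uses TMM library sizes, and an SE is the absolute log2 fold change over the square root of F. The edgeR fit was tested on simulated data for the Nt+/+ fasting comparison only, with independent genes at a common dispersion of 0.0357. The other steps were not simulated. DESeq2 1.42.0 was an alternative. Pseudogenes were matched with blastn 2.17.0.

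Neither source says what the replicate numbers stand for, so p-values measure the spread between mice. Same-numbered mice deviated together: by the file-name number, which differs from the title for 2 mice, every pair of the compared groups correlated above 0.1 (lowest 0.117, fed groups; 0.165, Nt+/+ fasting; 0.123, Nt-/- fasting; 0.124, fasted groups). With title numbers the lowest for Nt-/- fasting was −0.065. The replicate block in the text is the file-name number. Mice with the same file-name number had the same labelled sex wherever a sex was given. The block and the correlations of same-numbered mice therefore also hold sex.

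Named genes are the tested paralogs and their parents, genes of known role, the 5 highest and 5 lowest in each fasting comparison and the 3 smallest p elsewhere; in other lists, the 2 highest and 2 lowest. Rpl23a, Rpl28, Rpl41, Rps18, Rps24 and Larp1 lie outside this rule and were chosen after their values were seen. The genes and lists were chosen with earlier results of these data known. Protein sequences were not used here.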

Additional observations from a re-analysis of the deposited data

Results flagged for a closer look

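Of 136 sets of 4 or 5 mice examined (33 named genes and the share of all counts, in each group), 4 held a mouse that stood apart from the rest of its group by Dixon's criterion, which chance meets in about 1 in 20 sets. Rps14 stood at 8.01 log2 CPM in ad libitum–fed Nt-/- replicate 2, and the other 3 mice at 8.21 to 8.22. Fasted Nt-/- replicate 2 was low in Rpl27 (4.65 log2 CPM, against 5.20 to 5.37) and in Rpl39 (7.23 log2 CPM, against 7.60 to 7.73). In ad libitum–fed Nt+/+ replicate 3, the family took 2.75% of all counts, against 2.33% to 2.44% in the other 4 mice. Replicate 1 of that group had 11.5% of its counts on CT010467.1. As shares of protein-coding counts, replicates 3 and 1 had 3.11% and 3.02%, against 2.61%, 2.72% and 2.72% in replicates 2, 4 and 5. On that scale replicate 3 lay close to replicate 1.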

How the results depend on the processing

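The median log2 fold change of the tested genes stayed between 0.24 and 0.34 for fasting in Nt+/+ mice and between 0.29 and 0.40 in Nt-/- mice over 32 alternatives, and 0 genes were called by genotype or interaction in any of them. Counts of calls moved more. Genes raised by fasting in Nt+/+ mice numbered 35, and 55 with upper quartile normalization, 19 without a filter on low counts and 20 with the conflicting mouse as fasted Nt-/-; with each mouse left out they ran from 15 to 50. In Nt-/- mice 55 were raised, 31 without the filter, 35 with sex as a covariate, and 23 to 68 with each mouse left out. Over all genes, 1605 and 1756 of 34546 were raised without the filter in Nt+/+ and Nt-/- mice. With upper quartile normalization, 2141 of all 17875 were raised in Nt+/+ mice. Genes of the family lowered numbered 2 in each genotype. With each mouse left out these ran from 1 to 2 in Nt+/+ mice and from 0 to 2 in Nt-/- mice. In Nt-/- mice 0 were lowered with DESeq2, without the filter or with the conflicting mouse moved, and 1 with TMM factors from other genes, with sex, or with only the groups compared. DESeq2 raised 51 and 64. The cause was not tested.

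With the replicate block, 62 (title number) or 66 (file-name number) genes were raised in Nt+/+ mice and 68 or 67 in Nt-/- mice; beyond the calls given in the text, no count moved by over 1.5 times.

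The family's share of summed TPM was 4.64%, 4.58%, 5.42% and 5.71% in fed Nt+/+, fed Nt-/-, fasted Nt+/+ and fasted Nt-/- mice, its share of protein-coding counts 2.84%, 2.80%, 3.38% and 3.36%, and with named pseudogenes the fed Nt-/- share was 2.63%. With each mouse left out the shares of all counts ran from 2.38% to 2.48%, 2.43% to 2.53%, 2.93% to 3.09% and 2.90% to 3.14%. Over named genes and alternatives, 5031 results stayed on their side of the threshold, 123 lost and 126 gained a call, and 0 changed direction after a call.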

Other observations

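Among fasted mice, the mean log2 CPM of the core genes was highest in file-name number 1 in both genotypes (8.50 in Nt+/+ and 8.58 in Nt-/- mice) and stood at 8.17 and 8.07 in number 2, with 8.38 and 8.36 in number 3, 8.16 and 8.36 in number 4 and 8.43 and 8.49 in number 5. Within each number that both diets have, the family's share of all counts was higher in the fasted mouse, by 0.268 to 1.00 percentage points in 5 of 5 Nt+/+ pairs and by 0.0795 to 0.991 points in 4 of 4 Nt-/- pairs. The largest Nt+/+ difference, 1.00 points, was in number 1, whose fed mouse had 11.5% of its counts on CT010467.1. The labels do not say what the number stands for.

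With the counts of sequence-matched pseudogenes added to each gene, fasting raised 41 of the 81 genes in Nt+/+ mice and 57 in Nt-/- mice. Over all genes, that fit raised 2026 and 2247 of 17647. Rps23, with 60.9% of its counts on copies, then had changes of 0.31 and 0.36 (edgeR adjusted p = 0.0188 and 0.00898), against 0.21 and 0.30 without them.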
